A study of Mus musculus with 3 samples.

Results

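The genes described here carry a fatty acid from outside the hepatocyte to its CoA-activated form. The 10 genes were taken as a list by their function and located in the GENCODE release M1 annotation of the mouse NCBI37/mm9 genome, out of 22367 protein-coding genes. They are Cd36, Vldlr, Slc27a2 and Slc27a4 for uptake, Fabp1 and Fabp2 for transport within the cell, and Acsl1, Acsl3, Acsl4 and Acsl5 for activation. For each gene, the binding of retinoid x receptor α (RXRα) and retinoic acid receptor α (RARα) was examined from 10 kb on either side of the gene start and over the gene body. The window of Acsl1 was extended to 50 kb past the end of the gene.

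Liver of wild type C57BL/6 male mice, 3 months old in the sample labels, was the source of all 3 libraries. They were 1 library of chromatin precipitated with an antibody to RXRα, 1 of chromatin precipitated with an antibody to RARα (sc-551x) and 1 of input chromatin, which was not precipitated. No mouse was treated, and whole liver was used, so hepatocytes and other liver cells are not separated. There was 1 library per antibody, so no value below has a replicate check, no test between libraries was made, and intervals cover counting error only.

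Long-chain fatty acids enter hepatocytes through membrane proteins such as CD36 and the fatty acid transport proteins, or arrive with lipoprotein remnants that are taken up by receptors. Inside the cell they are held by fatty acid binding proteins, and acyl-CoA synthetases couple them to CoA before oxidation or esterification. RXRα binds DNA mostly as the partner of another nuclear receptor. Its complex with PPARα, a receptor for fatty acids, is known for binding direct repeats of a hexamer with a spacing of 1 base (DR1) near genes of this pathway. RARα with RXRα is best known for repeats with a spacing of 5 or 2 bases (DR5 and DR2).

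An RXRα region is a stretch where the RXRα signal was at least 20 times the input signal, with the input taken as no lower than its genome mean, and bins within 200 bp were joined. Over a place with no input read, 13 RXRα reads in a 32 bp bin reached this threshold. A RARα peak is an entry of the deposited list with a score over 20. The list did not state what the score is, the scores ran up to 382, and the median of the peaks over 20 was 33. A RARα peak was called co-localized when it overlapped an RXRα region by at least 25% of the narrower of both.

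RARα peaks were found at 9 of the 10 genes, RXRα regions at 9, and co-localized peaks at 7. The background over all protein-coding genes, counted in the same window, was 57.9% with a RARα peak, 48.0% with an RXRα region and 27.2% with a co-localized peak. Within 10 kb of the gene start alone the counts were 8, 9 and 6 of 10, and the corresponding shares of all genes were 52.2%, 39.8% and 23.5%. The median gene body was 40.5 kb among the 10 genes and 15.4 kb among all genes, so the longer windows gave these genes more room for a peak or region. The highest RXRα over input ratio in the window had a median of 64.9 over the 10 genes and 19.9 over all genes. Vldlr had neither a peak nor a region, and Fabp2 and Acsl4 had both but none co-localized.

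**Figure D1:**
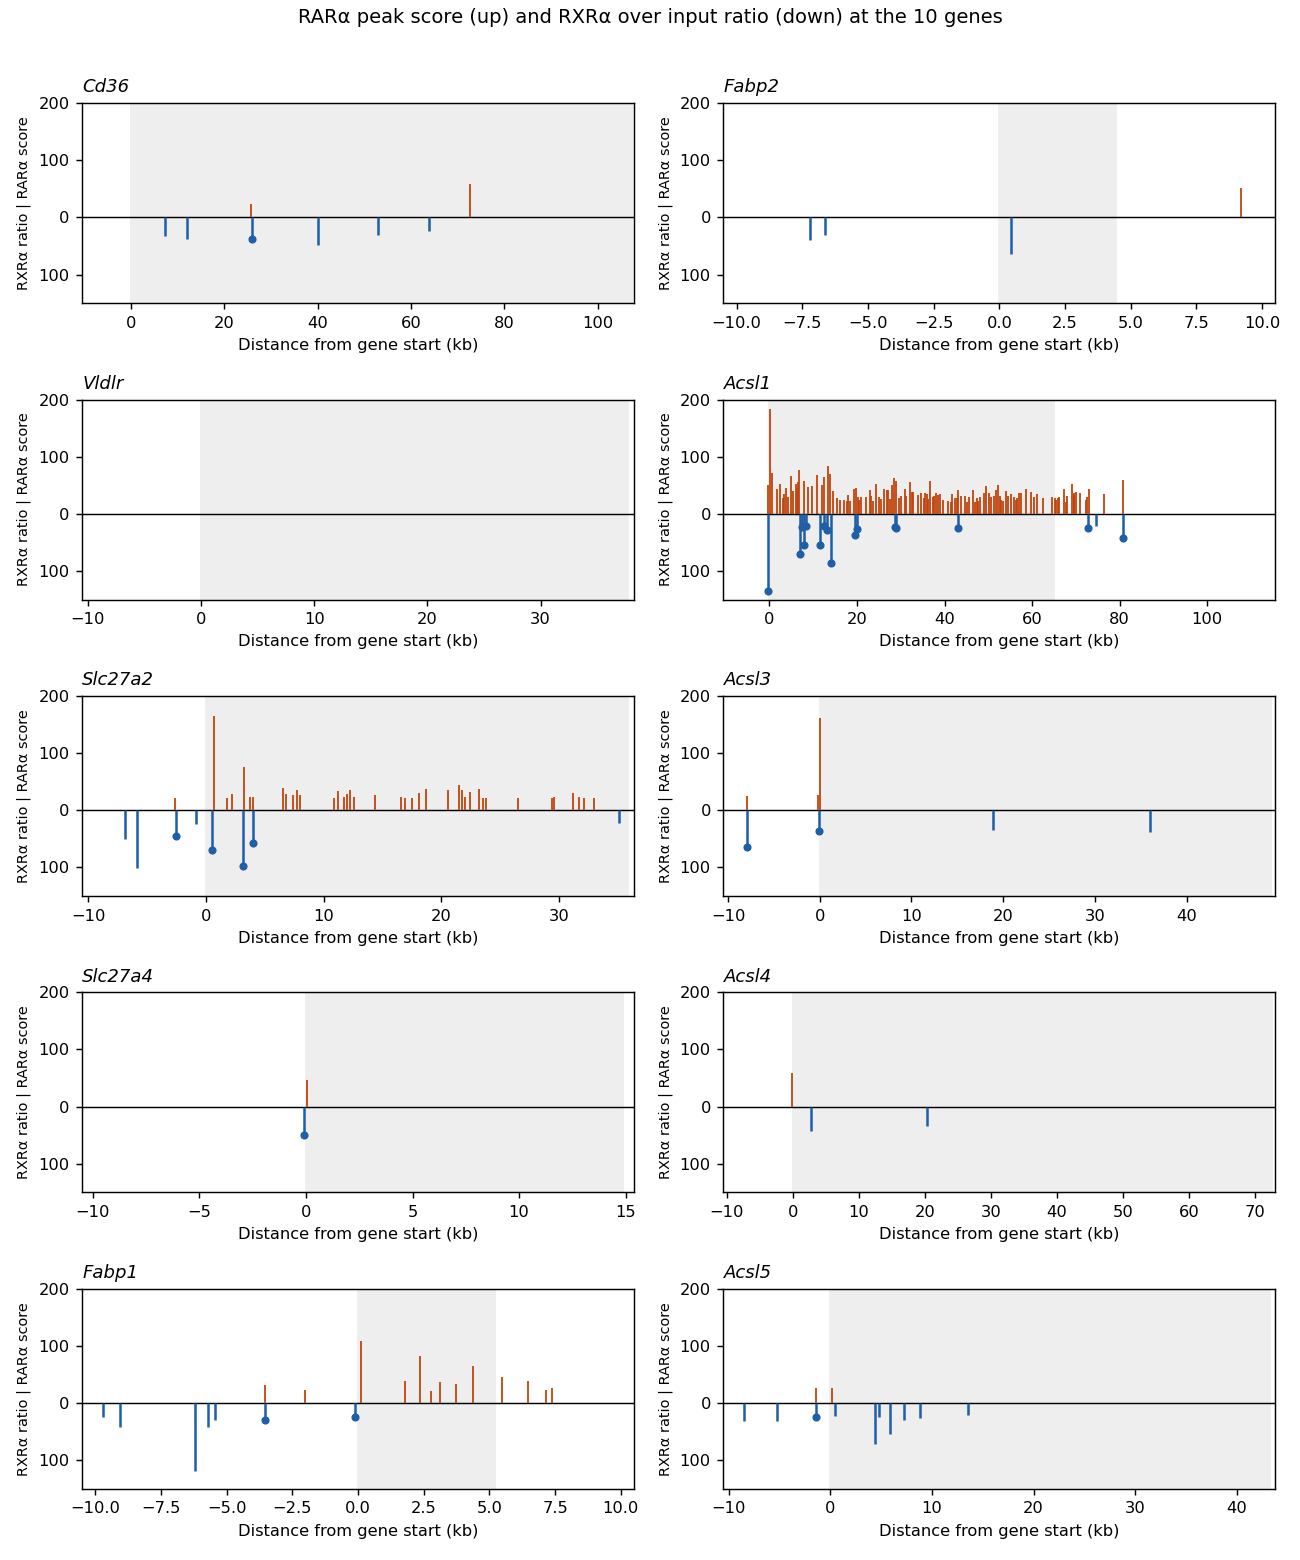
Each panel plots 1 gene, with distance from the gene start in kb on the horizontal axis and the gene body shaded. Lines upwards are the scores of RARα peaks, lines downwards the RXRα over input ratios of RXRα regions, and a dot marks a region under a RARα peak. RARα peaks follow each other along Acsl1 (125) and Slc27a2 (39), the 7 regions of Fabp1 are all upstream, and Vldlr is empty.

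The following sequences show the DR1 found within 100 bp of the highest bin of 8 RXRα regions of these genes, because this is the element most often tied to fatty acid genes. Each run is read 5′ to 3′ on the strand of the repeat from the NCBI37/mm9 genome, and capitals mark both half-sites. The half-site searched was AGGTCA, and its variants were AGTTCA, the form GGGTCA and lastly the form GGTTCA. Both strands were searched, with at most 1 mismatch over the 12 half-site bases. The first 2 matched exactly. Distances are from the gene start to the highest bin of the region.
Cd36, intron, 63944 bp inside the gene (chr5:17330780-17330836, minus strand): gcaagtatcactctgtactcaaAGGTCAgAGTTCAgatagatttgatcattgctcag
Fabp1, 5452 bp upstream (chr6:71144380-71144436, minus strand): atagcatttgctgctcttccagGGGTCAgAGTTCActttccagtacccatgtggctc
Fabp1, 5708 bp upstream (chr6:71144133-71144189, minus strand): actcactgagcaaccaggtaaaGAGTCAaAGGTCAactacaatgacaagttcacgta
Slc27a2, 6830 bp upstream (chr2:126371255-126371311, plus strand): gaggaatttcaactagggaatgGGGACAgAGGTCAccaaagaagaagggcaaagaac
Slc27a2, intron, 3186 bp inside the gene (chr2:126381297-126381353, minus strand): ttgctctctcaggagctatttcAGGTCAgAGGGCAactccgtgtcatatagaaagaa
Acsl3, 7951 bp upstream (chr1:78646376-78646432, minus strand): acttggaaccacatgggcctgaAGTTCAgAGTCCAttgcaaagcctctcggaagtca
Acsl5, intron, 5854 bp inside the gene (chr19:55333695-55333751, plus strand): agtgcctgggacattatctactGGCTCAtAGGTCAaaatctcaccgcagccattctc
Acsl1, intron, 28998 bp inside the gene (chr8:47585325-47585381, minus strand): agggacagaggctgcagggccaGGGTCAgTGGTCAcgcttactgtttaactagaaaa

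Counted in 100 bp on either side of the centre of the highest bin, exact DR1 letters stood at 2 of the 58 RXRα regions of the 10 genes (3.45%) and at 1.33% of all 42117 RXRα regions. With 1 mismatch allowed, DR1 stood at 8 of 58 (13.8%, 95% Wilson interval 7.16 to 24.9%) and at 9.24% of all regions, which lies inside that interval. Windows of the same length at the starts of all protein-coding genes held DR1 with at most 1 mismatch in 1.36%. Of the other spacings, also with 1 mismatch allowed, DR2, DR3 and DR4 each stood at 1 region of the 58 (0.305 to 9.14%). DR5 stood at 0 (0 to 6.21%). Over all regions DR2 stood at 5.98%, DR3 at 3.26%, DR4 at 4.68% and DR5 at 4.16%, each inside its interval here. Any of DR1 to DR5 stood at 19.0% of the 58 regions and at 23.4% of all. At the summits of the 187 RARα peaks no exact repeat of any spacing was found, and 8.02% held one with a mismatch, near the 8.5% of all 32946 RARα peaks with a score over 20. The centre of the match in the intron of Slc27a2 lay 4 bp from the centre of the highest bin. For the other 7 DR1 matches the centres lay 10 to 48 bp apart. The match was inside the called region at 4 of the 8, namely both of Slc27a2, the exact match of Fabp1 and that of Acsl5. At the other 4 it lay beside the region, with 2 to 26 bp between them.

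Cd36, the fatty acid translocase of the plasma membrane (chr5:17287508-17394777, minus strand), had RXRα regions only inside the gene. There were 6, all intronic, from 7208 to 63944 bp after the gene start, with ratios from 23.2 to 48.1. The highest ratio, at 40072 bp, came from 29 RXRα reads over a bin with no input read. Around that bin, 480 bp held 35 reads of RXRα and 3 of input, or 11.7 times (95% exact interval 3.68 to 59.3). Within 1 kb of the annotated gene start the ratio reached only 3.32. Cd36 has 3 annotated protein-coding transcript starts, and the other two, at 39167 and 53063 bp inside the gene, had ratios of 48.1 and 29.9 within 1 kb. Cd36 had 2 RARα peaks. The peak with a score of 24 at 25602 bp was co-localized, with an RXRα enrichment of 9.77, while the higher peak, with a score of 58 at 72552 bp, was not and had an enrichment of 1.48. RXRα enrichment is the mean RXRα signal across a RARα peak, or a gene body where stated, over the mean input signal there. That input was taken as no lower than its genome mean. The exact DR1 of Cd36 lay beside its weakest region by ratio (23.2), which was not under a RARα peak.

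Vldlr, a lipoprotein receptor that takes up triglyceride-rich particles mainly in muscle and fat (chr19:27290974-27328721, plus strand), had 0 RARα peaks of any score and 0 RXRα regions. Its highest ratio was 11.6, in an intron 19571 bp inside the gene, from 7 RXRα reads and no input read. Around its 5 annotated protein-coding starts the ratio stayed at or below 3.32. Of all protein-coding genes, 34.6% had neither a RARα peak nor an RXRα region. Over the whole body of Vldlr the RXRα enrichment was 0.555.

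Slc27a2, which encodes the transport protein FATP2 and also activates very long-chain fatty acids in liver (chr2:126378143-126413979, plus strand), held the most RXRα reads in 480 bp of the 10 genes. It had 8 RXRα regions, 4 of them upstream and 4 inside the gene, with ratios from 21.6 to 101. The highest ratio was at 5870 bp upstream, from 61 RXRα reads and no input read, and was not under a RARα peak. The region at 3186 bp in an intron had a ratio of 98.0. Around it 480 bp held 249 reads of RXRα and 10 of input, or 24.9 times (13.3 to 52.6), and the RARα peak on it scored 76, with an enrichment of 14.7. The region at 530 bp, in the 5′ UTR, lay under the highest-scoring RARα peak of the gene (165), where the enrichment was 17.5. The co-localized peak with the highest RXRα enrichment, 18.2, had a score of 22 and lay 2653 bp upstream. In all, 4 of its 39 RARα peaks were co-localized. The other 35 ran along the gene body with enrichments from 0.0909 to 6.64. These were below the lowest co-localized value of 11.4, a difference largely built into the definition of co-localization.

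Slc27a4, which encodes FATP4 and is best known in intestine and skin (chr2:29658154-29673042, plus strand), had 1 RXRα region and 1 RARα peak, and they coincided at the gene start. The region had a ratio of 49.0 at 89 bp upstream, from 49 RXRα reads and 1 input read. The RARα peak scored 47, and the enrichment across it was 17.1. Over the gene body outside the region, RXRα did not exceed input, with 33 RXRα and 52 input reads.

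Fabp1, the fatty acid binding protein of liver (chr6:71149821-71155017, plus strand), had its RXRα regions and most of its RARα peaks on different sides of the gene start. All 7 RXRα regions were upstream, from 9708 to 108 bp before the start, with ratios from 23.8 to 120. Of 13 RARα peaks, 2 were upstream, 7 were in the body and 4 were past the end. The highest ratio, at 6220 bp upstream, came from 72 RXRα reads and no input read, and around it 480 bp held 144 reads of RXRα and 3 of input, or 48.0 times (16.1 to 235). It was not under a RARα peak with a score over 20, although a peak of a lower score lay on it. The regions at 5708 bp upstream, with a DR1 beside it, and at 5452 bp upstream, with the exact DR1 inside it, had no RARα peak of any score. The co-localized peaks were at 3536 bp upstream, with a score of 32, and at the start, with a score of 109, and had enrichments of 5.95 and 5.63. At the start itself the region was narrow. It had 95 RXRα reads over 4 input reads in its highest bin, and 21 input reads in 480 bp, the most input of all 58 regions. The genome mean of the input was 1.81 reads per 480 bp.

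Fabp2, the fatty acid binding protein of intestine (chr3:122597990-122602424, plus strand), had RXRα regions and 1 RARα peak with a score over 20. Its 3 RXRα regions were at 7221 and 6645 bp upstream and 459 bp inside the gene, in an intron, with ratios of 40, 29.9 and 64.7. The last of these had 77 RXRα and 7 input reads in 480 bp, a ratio of 11.0 (5.09 to 28.3). The only RARα peak, with a score of 51, lay 9215 bp after the start and past the gene end. It had an RXRα enrichment of 1.5, and no RXRα region overlapped it. The RXRα region at 6645 bp upstream lay under a RARα peak with a score of 19, so the lack of co-localization rests on the score threshold. Between both binding protein genes, RARα peaks of any score covered 99% of the body of Fabp1 and 0% of the body of Fabp2, while both had an RXRα region within 1 kb of the start.

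Acsl1, the main long-chain acyl-CoA synthetase of liver (chr8:47556395-47621405, plus strand), carried 125 of the 187 RARα peaks and 17 of the 58 RXRα regions. Of the RARα peaks, 1 was upstream, 107 were in the gene body and 17 were past its end. Counted without the extension past the end, its 108 RARα peaks were the 5th highest number among all protein-coding genes. The RARα peak with the highest score, 184, was at 165 bp in the 5′ UTR. It was not co-localized and had an RXRα enrichment of 3.47. The neighbouring peak at 300 bp upstream, with a score of 51, was co-localized and had the highest enrichment of the gene, 22.8. The RXRα region under it had the highest ratio among the 10 genes, 134 at 442 bp upstream, from 81 RXRα reads and no input read. Around this bin, 480 bp held 138 RXRα and 5 input reads, a ratio of 27.6 (11.5 to 86.3).

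No DR1 to DR5 with at most 1 mismatch stood around the highest bin of that Acsl1 region. It is shown here along the gene strand because it held the highest ratio, with the 2 exact half-sites, found on either strand, in capitals.
Acsl1, 442 bp upstream (chr8:47555903-47556003, plus strand): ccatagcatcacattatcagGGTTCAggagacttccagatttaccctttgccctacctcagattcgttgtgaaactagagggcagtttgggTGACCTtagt
In windows of this length, 45.0% of all RXRα regions held at least 1 exact half-site.

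The 13 RXRα regions in the gene body of Acsl1, from 6886 to 43110 bp after the start, all lay under RARα peaks with scores from 41 to 83. RARα peaks of any score covered 96.6% of this body. A region almost anywhere there would lie under one, so the count does not show that the receptors share sites. The ratio was 86.0 at 14118 bp, 69.7 at 6886 bp and 54.8 at both 7974 and 11462 bp, and between 21.6 and 36.5 at the other 9. Conversely, 13 of the 107 RARα peaks of the body were co-localized, so most of the RARα tract had no RXRα region. The RARα peaks not co-localized had a median RXRα enrichment of 2.03, and the co-localized peaks had 11.2, a difference largely built into the definition of co-localization. Past the gene end there were 3 RXRα regions, of which the strongest, with a ratio of 43.0 at 80774 bp after the start, was under a RARα peak with a score of 59. That region, with 3 others of Acsl1 beyond 43 kb and 56 of its RARα peaks, was nearer to the start of the next gene, Mlf1ip, than to that of Acsl1.

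**Figure D2:**
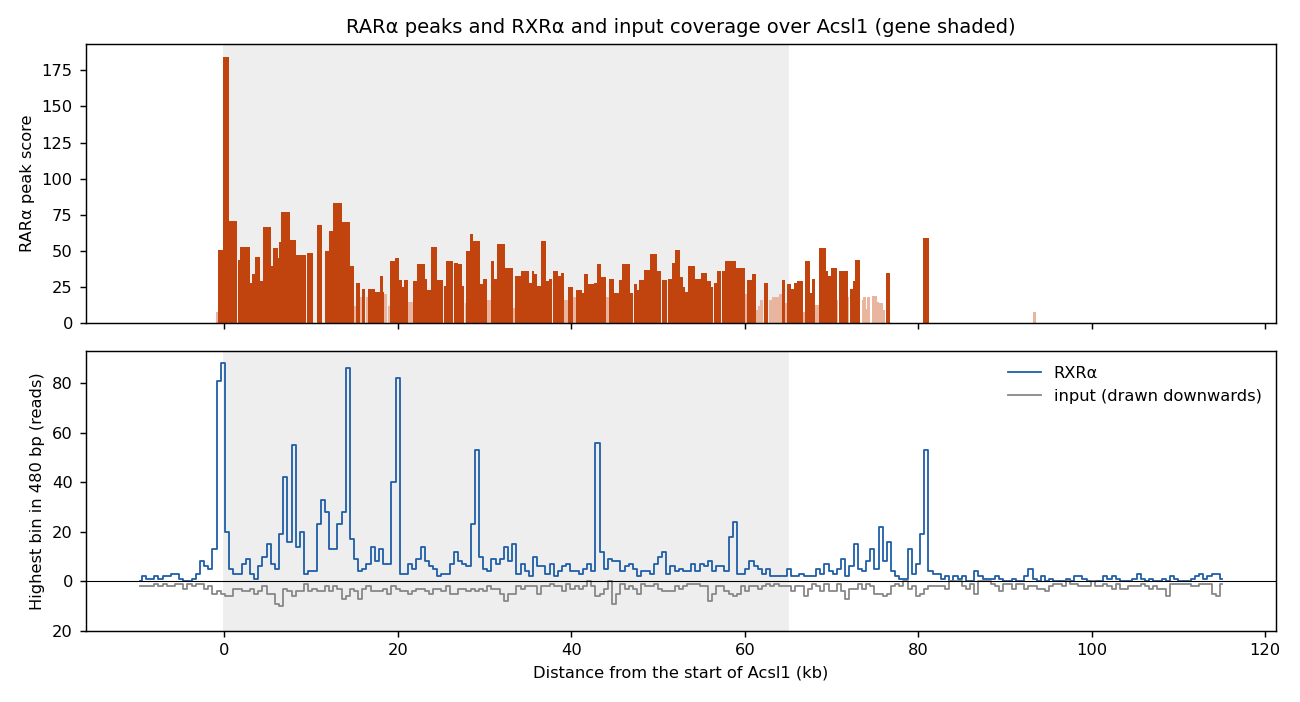
The upper panel plots the score of each RARα peak over Acsl1 against distance from the gene start in kb, with peaks at or under a score of 20 in a pale shade. The lower panel plots the highest 32 bp bin in each 480 bp, in reads, upwards for RXRα and downwards for input. RARα peaks cover 96.6% of the shaded gene body, with short gaps, and the RXRα signal stands in separate places, with its tallest bins at the start, at 14118 bp and near 20 kb.

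The RARα peaks of Acsl1 were pieces of longer stretches. Of its 124 pairs of neighbouring peaks, 99 were 10 bp apart, and 87 of the 125 peaks carried the same false discovery rate of 0.14%. Joined at such gaps, and with peaks of any score, 79 peaks formed a stretch of 38.4 kb, from 18856 to 57246 bp after the start. It was the 2nd longest of 92167 in the genome. The longest stretch of Fabp1 was 8.17 kb and that of Slc27a2 4.98 kb, ranked 59 and 146. RARα peaks of any score covered 96.6% of the body of Acsl1, 99% of that of Fabp1 and 86.2% of that of Slc27a2. The other 7 genes had 0 to 5.61%, and the median of all genes was 1.84%. A coverage over 80% was found in 1.14% of all genes, and among the 7353 genes over 30 kb in 15 (0.204%), which include Acsl1 and Slc27a2.

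Input chromatin was raised over the same 3 gene bodies. The mean input signal in the body, relative to the genome mean, was 3.18 for Fabp1, 2.55 for Slc27a2 and 2.37 for Acsl1, above 99.1%, 97.5% and 96.7% of all genes, where the median was near 1. Fabp2, with no RARα peak in its body, had 2.64. Outside RXRα regions the RXRα reads over these bodies also exceeded input, with 246 against 63 in Fabp1, 1137 against 506 in Acsl1 and 563 against 312 in Slc27a2. In Fabp2 they did not, with 10 against 34. No RXRα region of Fabp1 lay in its body, so nothing was left out of its count. That count includes reads beside the region at the start. The 480 bp of Fabp1 with the most RXRα reads reached from there into the body. The RARα peaks in this body that were not co-localized had RXRα enrichments from 1.0 to 4.79. Without RARα tracts, RXRα was 1.3 times input at Acsl4, 1.2 times at Acsl5 and 1.02 times at Acsl3. At Cd36, Vldlr and Slc27a4 it was 0.725, 0.658 and 0.636 times. The part of the raised input in the RARα tracts was not tested, and no RARα coverage was used here, only its peak list.

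Acsl3, an acyl-CoA synthetase of the endoplasmic reticulum and lipid droplets (chr1:78654400-78703562, plus strand), had all of its 3 RARα peaks co-localized. The highest score, 161, was at 55 bp in the 5′ UTR with an RXRα enrichment of 9.74, and a peak with a score of 27 abutted it upstream. Both overlapped the RXRα region at 79 bp upstream, which had a ratio of 36.0. The peak at 7955 bp upstream had a score of only 25 but the highest RXRα enrichment of the gene, 17.2. It covered the RXRα region with the highest ratio, 65.0, from 65 RXRα reads and 1 input read, and the DR1 shown above lay beside that region. Its other 2 regions, at 18865 and 36049 bp in introns, with ratios of 35.0 and 38.2, had no RARα peak with a score over 20 and were nearer to the start of another gene, Utp14b.

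Acsl4, which prefers arachidonic acid (chrX:138752536-138825078, minus strand), had its RARα peak with a score over 20 and its RXRα regions at different places. Its RARα peak, with a score of 59, was 187 bp upstream and had an RXRα enrichment of 3.61. Its 2 RXRα regions were in introns at 2693 and 20389 bp, with ratios of 43.1 and 33.2. Around the first, 480 bp held 42 RXRα and 2 input reads, a ratio of 21.0 (5.46 to 179). Both regions lay under RARα peaks with scores of 20 or less, so here too the lack of co-localization rests on the score threshold.

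Acsl5, a synthetase of mitochondria and the endoplasmic reticulum (chr19:55327859-55371117, plus strand), had many RXRα regions and little RARα. There were 10 RXRα regions, a number reached by 2.33% of all genes, of which 3 were upstream, 1 was in the 5′ UTR and 6 were in introns. The highest ratio was 71.0 at 4446 bp, from 71 RXRα reads and 1 input read, and 480 bp around it held 137 RXRα and 9 input reads, a ratio of 15.2 (7.79 to 34.0). The region with a DR1 inside it, at 5854 bp, had a ratio of 54.8 and no RARα peak of any score. Of 2 RARα peaks, the one at 1439 bp upstream, with a score of 26, was co-localized and had an enrichment of 9.01. The other, with a score of 27 at 166 bp, was not and had an enrichment of 4.48. Of the 10 regions, 1 was under a RARα peak with a score over 20 and 5 under one of any score.

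**Figure D3:**
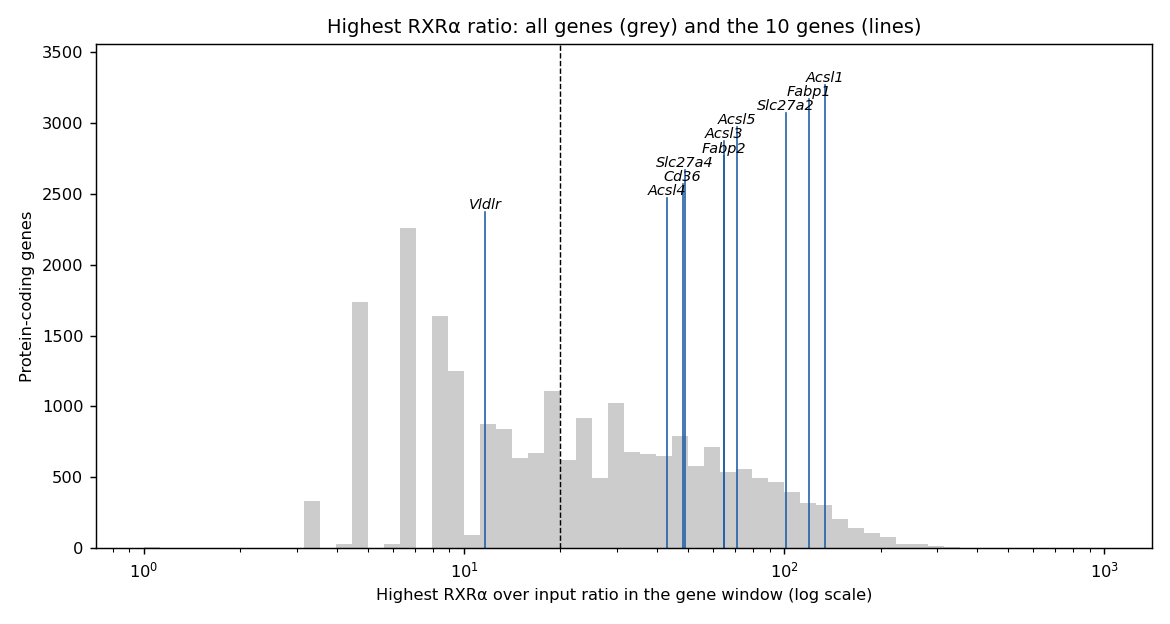
The histogram plots the number of protein-coding genes by the highest RXRα over input ratio in their window, on a log axis, and blue lines mark the 10 genes. The dashed line is the threshold of 20. Vldlr, at 11.6, is below it, and the other 9 genes lie between 43.1 and 134, with Acsl1, Fabp1 and Slc27a2 furthest to the right.

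The ratio of single bins ordered the genes as Acsl1 (134), Fabp1 (120), Slc27a2 (101), Acsl5 (71.0), Acsl3 (65.0), Fabp2 (64.7), Slc27a4 (49.0), Cd36 (48.1), Acsl4 (43.1) and Vldlr (11.6). In 7 of the 10 genes the highest bin held no input read, so its ratio rests on the genome mean of the input. When the mean input of the 5 kb around a bin was used where it was larger, the highest ratio fell to 52.3 for Acsl1 and 33.9 for Fabp2, and was 95 for Fabp1, 79.5 for Slc27a2 and 57.5 for Acsl5. Acsl1 was then no longer first. The highest bin also moved, to 14118 bp inside Acsl1, 7221 bp upstream of Fabp2 and 3282 bp inside Slc27a2. Counted as the most RXRα reads in any 480 bp, Slc27a2 had 259 (95% exact interval 228 to 293), Fabp1 had an interval of 174 to 231, and Acsl1 had 151 (128 to 177). Acsl5 had 144 reads, Cd36 101, Acsl3 89, Fabp2 86, Slc27a4 67 and Acsl4 42 (30.3 to 56.8), and Vldlr had 13 (6.92 to 22.2). The intervals of neighbours in this order overlapped for every pair except Acsl4 and Vldlr.

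**Figure D4:**
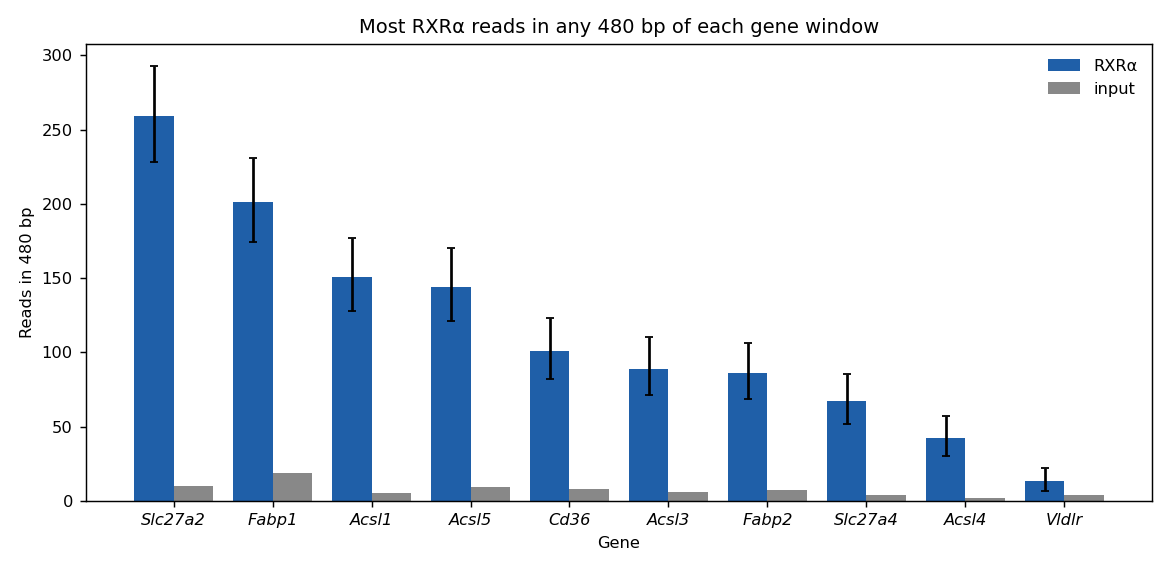
Bars plot the most RXRα reads found in any 480 bp of each gene window (blue) and the input reads of the same 480 bp (grey), with 95% exact Poisson intervals for RXRα that cover counting error only. Slc27a2 has 259 RXRα reads over 10 input reads and Vldlr 13 over 4.

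Over the 10 genes, 28 of 187 RARα peaks were co-localized (15%, 10.6 to 20.8%), and 12 of 62 without Acsl1 (19.4%, 11.4 to 30.9%). In the windows of all protein-coding genes the share was 32.5%, above both intervals. The intervals treat peaks as independent, but many abut as pieces of tracts, so they are too narrow for this comparison. With abutting peaks merged, 32 peaks remained at the 10 genes and 53.1% were co-localized. The merged share over all genes is not given, so a share below background cannot be concluded. The 3 genes with RARα tracts held 177 of the peaks, with 22 co-localized, and the other 7 genes held 10, with 6 co-localized. Seen from RXRα, 27 of the 58 regions lay under a RARα peak (46.6%, 34.3 to 59.2%), and 11 of 41 without Acsl1 (26.8%, 15.7 to 41.9%). Over the windows of all genes it was 28.9%, which the share without Acsl1 was near. RARα peaks cover most of the body of Acsl1, so regions there lie under them almost by position. The regions were mostly away from the gene start, with 8 within 1 kb of it. By location, 32 were intronic, 20 upstream, 3 in a 5′ UTR and 3 downstream of Acsl1. Besides those of Cd36, later annotated protein-coding starts of Slc27a2 (3723 bp) and Acsl1 (19933 bp) also had regions within 1 kb. The ratio there reached 98.0 and 36.5.

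**Figure D5:**
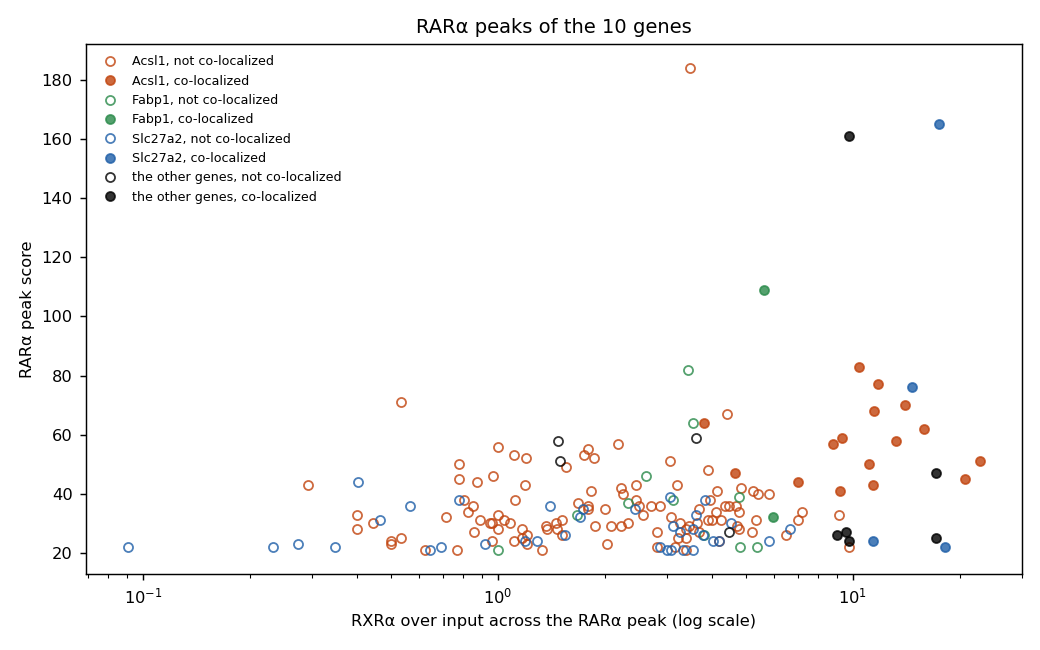
Each point is 1 of the 187 RARα peaks, with its RXRα over input enrichment on a log axis and its RARα score on the vertical axis, filled where co-localized. The co-localized peaks have a median enrichment of 11.2 and the others 2.23. Co-localized peaks overlap an RXRα region by definition, so this difference is largely built in. The highest score, 184 in Acsl1, belongs to a peak that is not co-localized but abuts a co-localized peak with a score of 51.

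For the rest of the pathway, 31 other genes of acyl-CoA synthesis, fatty acid transport and binding, and lipoprotein uptake were counted in the same way. Of these, 18 had a RARα peak (58.1%), 22 an RXRα region (71.0%) and 15 a co-localized peak (48.4%), with a median highest ratio of 51.4. The 3 with the highest RXRα ratio were Lrp1, the remnant receptor, with 287, Pmp2, a binding protein of myelin, with 141, and Lipc, the hepatic lipase, with 117. At Lrp1, 8 of 10 RARα peaks overlapped RXRα regions, and at Lipc all 4 did. Pmp2 had 2 RXRα regions and no RARα peak. In this list 7 genes had neither a RARα peak nor an RXRα region.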

How the data were processed

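Wild type mouse liver was profiled by ChIP-seq with 1 library each for RXRα, RARα and input. Alignment by the authors used Bowtie, peak calling MACS and annotation Peak Analyzer. Per the labels, CASAVA 1.4 was also used. Their methods name mm10 for alignment, but the file headers name mm9, and 0 chromosomes had RARα peaks beyond their NCBI37/mm9 end. The deposited RXRα and input tracks hold a linear signal, whole-number coverage in 32 bp bins, where each read covers 5 bins. It corresponded to 9999939 and 9999292 reads. The paper reports more uniquely mapped reads than this for RXRα, so these nearly equal totals are not library depths. Read counts and their intervals here are those of the deposited tracks. For RARα the deposited list gives a score and a false discovery rate in percent. The depth of the RARα library cannot be read from this list, although the paper states its number of uniquely mapped reads.

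The 20-fold and 10 kb limits, the score over 20 and the 25% overlap follow the paper's methods. Both tracks were brought to equal means (input, 0.603 per bin). Ratio intervals are exact binomial, shares Wilson, at 95%. Intervals and floors cover counting error only, and reads without molecular identifiers need not be independent molecules. The genes, lists and motifs were chosen with earlier results of these data known. All 10 genes are named, each with its highest region, highest-scoring peak and co-localized peak of highest enrichment. Of the 31 other genes, the 3 with the highest ratio are named. Detection, overlap and window steps were tested on simulated data. Python 3.11.15, numpy 2.4.6, pandas 2.3.3, scipy 1.17.1, pysam 0.24.0 and matplotlib 3.10.9 were used. No p-values were computed. RXRα peak lists and gene expression were not analysed here.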

Additional observations from a re-analysis of the deposited data

How the results depend on the processing

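With 1 library per antibody, no library could be left out, and no paired analysis was possible because no result came from a test. Of 71 values recomputed under other settings, 52 stayed close to the reported ones, within 1.5 times for counts and the median ratio or within its interval for the share co-localized, and 19 moved. The counts of genes with a RARα peak (7 to 9) or an RXRα region (7 to 10) stayed close in every setting. Genes with a co-localized peak fell from 7 to 4 with RARα scores over 50 and to 4 with RXRα regions at 30 times input. The 187 RARα peaks became 317 without a score threshold, 30 with scores over 50, 51 within 10 kb and 10 within 1 kb of the start, 32 with abutting peaks merged and 62 without Acsl1. The 58 RXRα regions became 121 at 10 times and 33 at 30 times input, 36 within 10 kb and 8 within 1 kb. With the mean input of the 5 kb around a bin used where larger, they became 41. The share co-localized was then 10.7%, and both count among the values that stayed close. At 33 of the 58 regions the highest bin held no input read, so its ratio rests on the genome mean of the input. The share co-localized, 15%, became 46.7% with scores over 50, 34.8% at 10 times and 6.95% at 30 times input, 29.4% within 10 kb, 60% within 1 kb and 53.1% with abutting peaks merged. The median highest ratio of 64.9 became 29.9 within 1 kb. By construction, each of these settings admits more or fewer peaks, regions or positions. Leaving out Acsl1 and dropping the extension past its end were chosen after seeing the data.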

Other observations

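Acsl3 and Slc27a2 each had a place where a weak RARα peak lay on a strong RXRα region away from the gene start. At 7955 bp upstream of Acsl3 a RARα score of 25 stood with an RXRα enrichment of 17.2, and at 2653 bp upstream of Slc27a2 a score of 22 stood with 18.2, against 9.74 and 17.5 at the highest-scoring RARα peaks of these genes. The values of Slc27a2 are close to each other. In Acsl1 the highest-scoring peak, 184, had an enrichment of 3.47, and the abutting peak with a score of 51 had 22.8.

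Counting RARα peaks of any score, 39 of the 58 RXRα regions lay under one, against 27 with scores over 20. Without the threshold the list held 143280 peaks over the genome, against 32946 with it. The matching share over all RXRα regions is not given, so the rise cannot be called particular to these genes. Acsl5 went from 1 to 5 of 10 regions, Fabp1 from 2 to 4 of 7, Acsl4 from 0 to 2 of 2, Fabp2 from 0 to 1 of 3, Acsl3 from 2 to 3 of 4, Cd36 from 1 to 2 of 6 and Slc27a2 from 4 to 5 of 8. Without a score threshold, 9 of the 10 genes had a co-localized peak, and the share of all genes in this setting is not given. At Cd36, 4 of its 6 regions had no RARα peak of any score.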
